A study of Mus musculus with 12 samples.

Results

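A set of 5 mouse gene models that carry a clone or prediction name instead of a descriptive one are described here in proximal colon: 1810010D01Rik, Gm1123, Gm1965, Gm11430 and E130008D07Rik. They are 5 of the 55376 genes in the count table and were picked by name because they differed strongly between *EPR* cKO and *EPR* fl/fl colon, so the difference between the genotypes is given below as a description and without a test. Names of this kind are placeholders: Gm followed by a number is given to a predicted gene, and Rik ends the name of a cDNA clone from the RIKEN collection. The RefSeq table of the mouse genome already lists 1810010D01Rik under the symbol Smim38, while the other 4 keep their placeholder there.

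RNA was sequenced from frozen pieces of proximal colon, 1 library per mouse, and all 12 animals (6 per genotype) were 12 weeks old. *EPR* is a long non-coding RNA (lncRNA) of epithelial tissues that the table lists as Smim31. The controls, *EPR* fl/fl mice, carry loxP sites on both sides of its promoter and first exon. *EPR* cKO mice carry the same floxed allele and a Cre recombinase driven by the CDX2 promoter, which is active in colonic and terminal ileal epithelium, while the homogenized tissue was the whole wall.

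The lining of the colon is made mostly of absorptive cells and of goblet cells, which secrete the mucin Muc2, the main building block of colonic mucus. Gene models without a function name in such tissue fall into several kinds. Some encode proteins, and some are lncRNAs, which are spliced but carry no long reading frame. Others are annotated as pseudogenes, which resemble a working gene but have themselves lost its function. Reads are assigned to all of them by exon coordinates in the same way as to well studied genes.

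The 5 models were of all 3 kinds. 1810010D01Rik lies on the minus strand at chr7:145205825-145208080 of GRCm38, has 3 exons with 889 counted bases, and is annotated as protein coding by GENCODE. Its reading frame has 51 codons and lies entirely in exon 3, which holds 85.2% of the counted bases. Gm1123 lies on the minus strand at chr9:99006790-99035715, has 8 exons with 1537 counted bases, and is annotated as protein coding with 390 codons. Gm1965 lies on the plus strand at chr6:89141005-89147353 and is a lncRNA of 3 exons and 2405 counted bases, 91.3% of them in exon 3. Gm11430 lies on the plus strand at chr11:83695275-83696185 and is the shortest, with 2 exons and 217 counted bases. GENCODE calls it an unprocessed pseudogene, and RefSeq a lncRNA. E130008D07Rik lies on the minus strand at chr17:43149357-43158196 and is a lncRNA of 6 exons and 4428 counted bases. GENCODE release M21 lists it under the clone name CT486005.1, to which it was matched by exon coordinates.

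**Figure D1:**
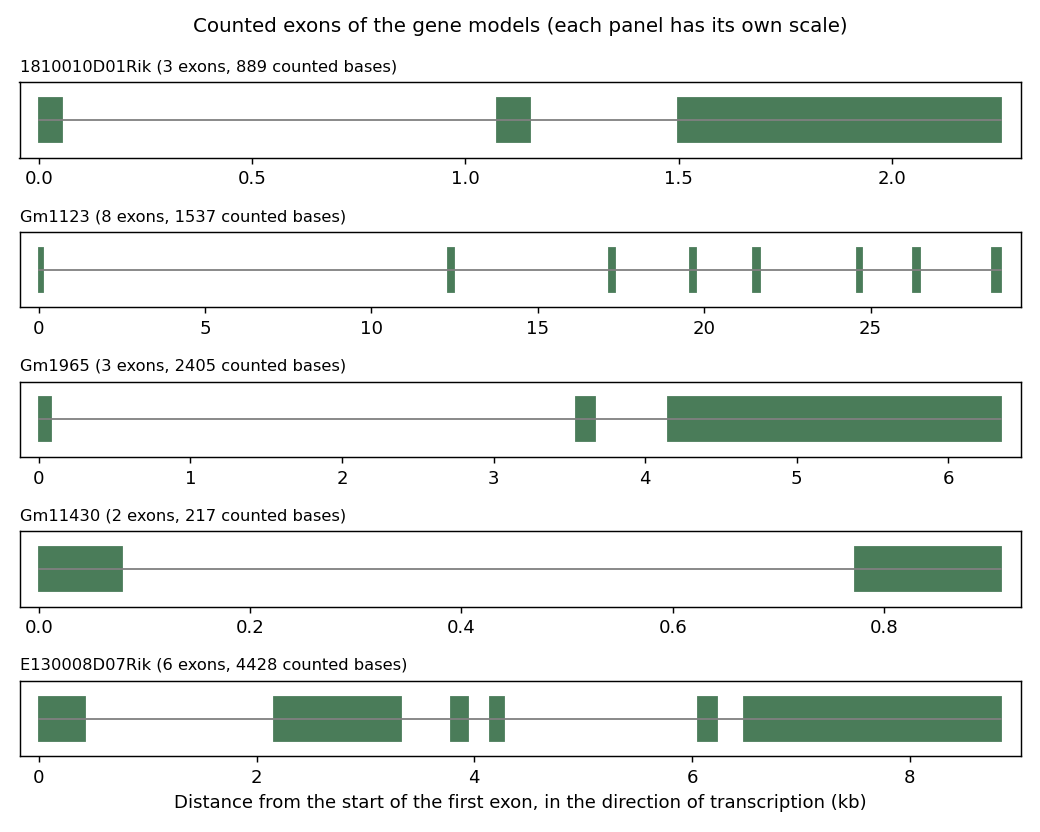
Counted exons of the 5 gene models as boxes along the distance from the start of the first exon, in kb, in the direction of transcription, with a scale of its own in each panel. A single last exon holds most of the counted bases of 1810010D01Rik and Gm1965, whereas the 8 exons of Gm1123 are all short.

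The reading frame of 1810010D01Rik is shown because the name Smim, for small integral membrane protein, rests on this short frame. It runs on the minus strand of GRCm38 over chr7:145205853-145206008, 5′ to 3′, with the first and the last codon in capitals.

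1810010D01Rik reading frame: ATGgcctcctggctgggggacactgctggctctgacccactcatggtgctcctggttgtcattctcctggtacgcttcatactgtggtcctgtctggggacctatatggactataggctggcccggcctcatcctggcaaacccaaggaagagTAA

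The exons of Gm1123 repeat each other. Exons 2, 4 and 6 are each 170 bases long and exons 3, 5 and 7 are each 205 bases long, between a first exon of 135 bases and a last exon of 277. Exons 2 and 4 were identical at 92.4% of positions, exons 2 and 6 at 85.9%, and exons 4 and 6 at 81.8%. The longer exons were identical at 74.1% of positions between 3 and 5, 72.7% between 3 and 7, and 74.1% between 5 and 7. The 3 shorter exons are shown to make the repeat visible. They lie on the minus strand of GRCm38 at chr9:99023243-99023412, chr9:99015964-99016133 and chr9:99010961-99011130, and positions at which the 3 differ are in capitals.

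Gm1123 exon 2: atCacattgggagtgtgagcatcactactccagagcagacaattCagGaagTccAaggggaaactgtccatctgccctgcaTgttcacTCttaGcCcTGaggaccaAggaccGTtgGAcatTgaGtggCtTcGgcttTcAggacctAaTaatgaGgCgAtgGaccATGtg
Gm1123 exon 4: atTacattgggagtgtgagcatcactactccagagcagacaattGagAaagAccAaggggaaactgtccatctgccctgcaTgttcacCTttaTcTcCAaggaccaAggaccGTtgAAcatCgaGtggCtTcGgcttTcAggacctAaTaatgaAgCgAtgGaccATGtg
Gm1123 exon 6: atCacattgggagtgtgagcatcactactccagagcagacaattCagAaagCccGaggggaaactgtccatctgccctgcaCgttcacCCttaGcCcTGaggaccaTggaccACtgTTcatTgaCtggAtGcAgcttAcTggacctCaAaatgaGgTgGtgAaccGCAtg

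The same bases stood at 80.6% of the 170 positions in all 3 of these exons. A search of the Gm1123 transcript against the other transcripts of the annotation found 1 gene, Cxadr, with 72.8% identity over 400 aligned bases. Cxadr encodes the coxsackievirus and adenovirus receptor, an immunoglobulin-family protein of epithelial junctions. No stretch of 50 bases was shared between the 2 transcripts, nor between Gm1123 and any other gene. Cxadr stood at 53.2 ± 4.69 RPKM (CPM, the counts of a gene per 1000000 counts of its library, divided by the counted length in kilobases; SD, n = 6) in *EPR* fl/fl, against 54.0 ± 4.43 in *EPR* cKO, and its libraries overlapped between the genotypes.

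Shared sequence decides how surely reads can be assigned to a model. 1810010D01Rik, Gm1965 and Gm11430 also shared 0 stretches of 50 bases with the transcripts of other genes, and Gm11430 resembled 1 other model, Gm11432, at 80.0% over 80 bases. In E130008D07Rik, 19 of 4379 stretches (0.434%) occurred in other genes. This transcript had weaker similarity to transcripts of 183 genes, and in the longest of those alignments the similar part lay around bases 1202 to 1591, so that its count is the least certain of the 5. None of the 5 models overlapped an exon of another gene in the table on either strand. The library kit keeps the strand, but whether the counting used it is not given in the sources used here.

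Promoter sequence is described for the 4 models that were lower in *EPR* cKO. They were chosen for that difference, so nothing is read from their sharing it. RefSeq promoter windows of 250 bases before the start (GRCm38.p6) were at hand for those 4. The letters TATAAA of the TATA box, TTTATG and TGTTTAC of the CDX and FOX cores, and CAGCTG of an E-box were searched on both strands after these windows had been seen. TATAAA was found only in Gm11430, at positions -146 to -141 and -30 to -25 from the start, against 12.4% of all 32851 RefSeq promoter windows of that length. TTTATG was found only in 1810010D01Rik, at -160 to -155, against 10.8% of the windows. TGTTTAC (3.17% of windows) and CAGCTG (13.0%) were found in none of the 4, and Gm1123 and Gm1965 held none of the motifs. No 2 matches overlapped. The 2 windows with a match are shown, with the match in capitals, on the plus strand at chr11:83695014-83695263 for Gm11430 and on the minus strand at chr7:145208120-145208369 for 1810010D01Rik.

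Gm11430 promoter: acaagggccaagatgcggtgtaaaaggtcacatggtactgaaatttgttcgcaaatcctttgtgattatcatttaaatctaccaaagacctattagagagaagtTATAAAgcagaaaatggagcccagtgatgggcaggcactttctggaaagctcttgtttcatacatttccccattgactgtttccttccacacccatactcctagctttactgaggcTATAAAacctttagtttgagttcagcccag
1810010D01Rik promoter: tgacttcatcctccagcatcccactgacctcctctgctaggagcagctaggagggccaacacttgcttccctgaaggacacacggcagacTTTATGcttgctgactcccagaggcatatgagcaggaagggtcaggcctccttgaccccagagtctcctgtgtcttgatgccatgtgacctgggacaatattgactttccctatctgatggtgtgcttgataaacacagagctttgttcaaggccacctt

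Libraries held 13093904 to 30727736 counts in *EPR* fl/fl, against 18468123 to 33211041 in *EPR* cKO. *EPR* itself stood at 21.2 to 58.0 CPM (scaled by the trimmed mean of M values, TMM) in the 6 *EPR* fl/fl libraries and at 0 to 0.423 in the 6 *EPR* cKO libraries (log2 fold change -8.09, SE 0.47, adjusted p = 1.6e-06, edgeR). A composition score, the mean log2 CPM of 8 epithelial marker genes minus that of 7 smooth muscle genes, ranged from 0.42 to 1.16 in *EPR* fl/fl and from -0.52 to 3.19 in *EPR* cKO. The other *EPR* cKO libraries beside library 1 scored 1.54 to 3.19, above every *EPR* fl/fl library, so the score and the genotype cannot be fully told apart. The *EPR* cKO library 1 had the lowest score of all and stood apart. Its smooth muscle markers summed to 8190 CPM, against 2725 to 4808 in *EPR* fl/fl and down to 886 in the other *EPR* cKO libraries, so results are also given without it. The 12 goblet cell markers, Muc2 among them, summed to 13593 to 28754 CPM in *EPR* fl/fl, against 6322 to 8724 in *EPR* cKO. At adjusted p under 0.05 (edgeR), 7 of the 12 were lower and 0 higher, where 1.57% of all analysed genes were lower and 0.884% higher. In bulk tissue, fewer cells of a type and less RNA per cell cannot be told apart. From crypt RNA and electron microscopy, the study proposes that goblet cells are still present in *EPR* cKO colon.

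1810010D01Rik, the small protein model, was the most reduced of the 5. Its TMM-scaled CPM was 3.14, 5.96, 6.45, 7.65, 5.36 and 3.86 in *EPR* fl/fl libraries 1 to 6. In *EPR* cKO libraries 1 to 6 it was 0.384, 0.888, 0.450, 0.579, 0.591 and 0.637. Every *EPR* cKO library lay below every *EPR* fl/fl library, with a gap between 0.888 and 3.14. The mean went from 5.41 ± 1.67 to 0.588 ± 0.175 (SD, n = 6 each), or 10.9% of the control level, and the log2 fold change was -3.19 (SE 0.27). The counts behind the *EPR* cKO values were 7 to 21 per library. In library 1 of *EPR* cKO, 7 counts gave an unscaled CPM of 0.356 with a 95% Wilson interval of 0.173 to 0.736, which covers counting error only.

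Gm1123, the model with repeated exons, had the most counts of the 5. It stood at 107.5, 121.3, 134.2, 139.5, 109.6 and 89.5 CPM in *EPR* fl/fl libraries 1 to 6. The *EPR* cKO libraries 1 to 6 had 17.5, 29.7, 27.8, 32.2, 41.5 and 26.6 CPM. The groups did not overlap, and the library with the lowest value was the *EPR* cKO library 1 that also had the lowest composition score. Means were 116.9 ± 18.6 CPM in *EPR* fl/fl, against 29.2 ± 7.83 in *EPR* cKO, which is 25% of the control level, with a log2 fold change of -2.00 (SE 0.18). With 318 to 4302 counts per library, counting error was small here. It would give a coefficient of variation (CV, the SD over the mean) of 2.11% in *EPR* fl/fl, against an observed 15.9%.

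Gm1965, a lncRNA, went from 7.96, 6.16, 8.51, 8.92, 5.94 and 6.22 CPM in *EPR* fl/fl libraries 1 to 6 to a lower level throughout. In *EPR* cKO libraries 1 to 6 it stood at 0.988, 1.40, 1.95, 1.87, 1.77 and 2.07 CPM. The highest *EPR* cKO value was thus well under the lowest *EPR* fl/fl value, and *EPR* cKO library 1 was again the lowest. Means were 7.28 ± 1.33 and 1.67 ± 0.407 CPM, a remaining level of 23.0% and a log2 fold change of -2.12 (SE 0.20).

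Gm11430, the short model annotated as a pseudogene or lncRNA, was near the limit of what these libraries resolve. Its CPM was 1.90, 1.36, 1.61, 1.62, 1.29 and 0.912 in *EPR* fl/fl libraries 1 to 6. In *EPR* cKO libraries 1 to 6 it was 0.220, 0.465, 0.300, 0.669, 0.591 and 0.478. The groups did not overlap, but the gap between them ran only from 0.669 to 0.912 CPM, and the values rest on 4 to 19 counts in *EPR* cKO and 17 to 51 in *EPR* fl/fl. The mean was 1.45 ± 0.341 against 0.454 ± 0.170 CPM, or 31.3% of control, with a log2 fold change of -1.64 (SE 0.27). In *EPR* cKO the observed CV of 37.4% was close to the 35.1% that counting alone would give. The 4 counts in *EPR* cKO library 1 gave an unscaled CPM of 0.204 with a Wilson interval of 0.0792 to 0.524.

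E130008D07Rik, the lncRNA with sequence similar to many genes, went the other way. It stood at 0.584, 0.616, 0.822, 0.616, 0.644 and 0.322 CPM in *EPR* fl/fl libraries 1 to 6. The *EPR* cKO libraries 1 to 6 had 0.933, 1.65, 1.75, 1.96, 1.68 and 2.02 CPM. The groups did not overlap, and *EPR* cKO library 1 came closest to the controls. Means were 0.601 ± 0.161 and 1.67 ± 0.389 CPM, a ratio of 2.77 and a log2 fold change of 1.45 (SE 0.24). Unscaled CPM reached 1 in 0 of 6 *EPR* fl/fl and 5 of 6 *EPR* cKO libraries. Genes were analysed if they reached 1 CPM in at least 4 libraries, so this model entered only through the group in which it was high and had to differ. Its CV of 26.8% in *EPR* fl/fl was under the 30.2% expected from 6 to 26 counts per library.

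**Figure D2:**
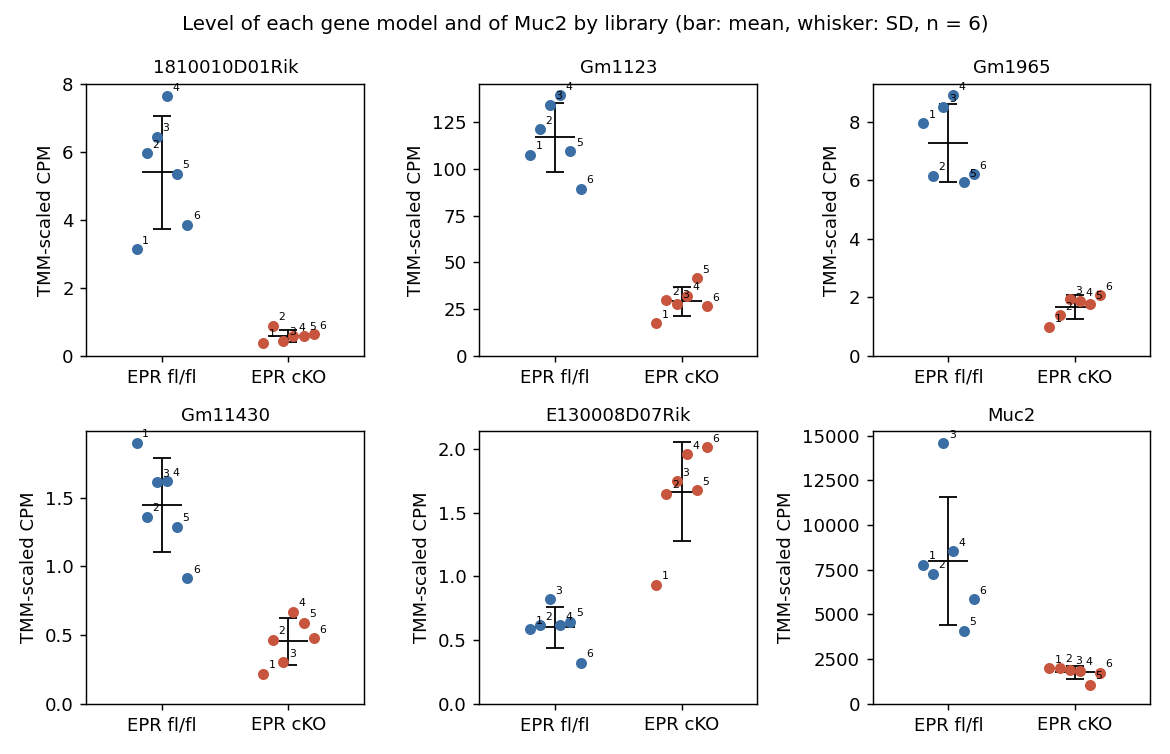
TMM-scaled CPM of the 5 gene models and Muc2 in each library, marked with its replicate number, with an axis from 0 in every panel. Bars and whiskers are the mean and SD of 6 libraries. The genotypes do not overlap in any panel, and library 1 is the lowest *EPR* cKO library for each of the 5 models.

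All 5 models passed the filter on low values, 3 of them only through the group in which they were high. Beside E130008D07Rik these were 1810010D01Rik, which reached 1 CPM in 6 of 6 *EPR* fl/fl and 0 of 6 *EPR* cKO libraries, and Gm11430, which reached it in 5 of 6 and 0 of 6, so both had to differ too. Among the 15952 genes that passed the filter, 251 were lower in *EPR* cKO at adjusted p under 0.05 (1.57%) and 141 higher (0.884%, edgeR). The thresholds of the study are stricter, an adjusted p under 0.001 together with a change of more than 2.38-fold, and past them 27 were lower (0.169%) and 0 higher (0%, edgeR). At that fold and an unadjusted p under 0.05, edgeR had 28 higher genes, and past the full thresholds DESeq2 had 8 and limma-voom 0. These counts depended on single libraries, above all on *EPR* cKO library 1, without which 2273 genes were lower, 1178 higher and 48 lower past the study thresholds. Without *EPR* fl/fl library 3 or 4 or *EPR* cKO library 3, 153, 145 and 156 were lower. Without any 1 library other than *EPR* cKO library 1 and *EPR* fl/fl libraries 2 and 6, 28 to 76 were higher. With total counts in place of TMM, 247 were lower and 39 higher. The groups did not overlap for 234 genes that were lower (1.47%) and 160 that were higher (1.00%). The 5 models were chosen by this contrast, so nothing is read from their place among these genes.

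Levels of the models are set beside each other per counted length, as RPKM. The counted exons held 69.6% of the GENCODE exon bases of 1810010D01Rik and 87.2% of those of E130008D07Rik. How well RPKM serves a model as short as Gm11430, with 217 counted bases, was not tested. In *EPR* fl/fl, Gm1123 had 76.1 ± 12.1 RPKM and lay above 95.7% of analysed genes. Gm11430 had 6.68 ± 1.57 RPKM, 1810010D01Rik 6.08 ± 1.88, and their values differed by less than their SD. Gm1965 followed with 3.03 ± 0.552 RPKM and E130008D07Rik with 0.136 ± 0.0363 RPKM, which was above only 0.301% of genes. In *EPR* cKO, Gm1123 still had 19.0 ± 5.09 RPKM and lay above 80.1% of genes. 1810010D01Rik, in the middle of the range in the controls at 53.1% of genes, dropped to 0.662 ± 0.197 RPKM and 11.4% of genes. Gm11430 had 2.09 ± 0.782 RPKM, Gm1965 0.696 ± 0.169 and E130008D07Rik 0.376 ± 0.0878 in *EPR* cKO. Gm1965 and 1810010D01Rik differed there by less than their SD.

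Leaving out *EPR* cKO library 1 changed the size of the differences little, while their direction could not change because the groups do not overlap. The log2 fold changes were then -3.11 for 1810010D01Rik, -1.90 for Gm1123, -2.03 for Gm1965, -1.52 for Gm11430 and 1.55 for E130008D07Rik. With the composition score as a covariate they were -3.34, -2.36, -2.47, -2.17 and 1.10 in the same order. The differences of the 4 reduced models were thus larger beside the score and that of E130008D07Rik smaller.

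The wider class of names gives the background to these values. Of 30440 models in the table with a clone or prediction name, 2142 (7.04%) were expressed enough to be analysed. Of these 2142, 16 were lower (0.747%) and 4 higher (0.187%) at adjusted p under 0.05, and the median log2 fold change was -0.03, against 0.02 over all analysed genes. Only 3 passed the study thresholds downward (0.140%) and 0 upward (0%, edgeR; 4 at that fold and an unadjusted p under 0.05, 2 with DESeq2 and 0 with limma-voom). The class includes the 5 models, which were chosen by this contrast, so these counts say nothing about them. As a description of size alone, 1810010D01Rik was 1st, Gm1965 4th, Gm1123 5th and Gm11430 9th in the class. E130008D07Rik had the 4th largest rise. Outside the 5, and chosen after their values were seen, the largest fall was that of Gm13986 (log2 fold change -2.46, SE 0.48) and the largest rise that of 0610040F04Rik (1.92, SE 0.38). The counts depended on single libraries. Without *EPR* cKO library 1, 91 models of the class were lower and 37 higher. Without *EPR* fl/fl library 3, *EPR* fl/fl library 4, *EPR* cKO library 3, 4 or 6, respectively, 9, 8, 9, 10 and 10 were lower. Without *EPR* fl/fl library 3 or *EPR* cKO library 2, 3 or 5, the number that were higher was 2, 2, 1 and 2.

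**Figure D3:**
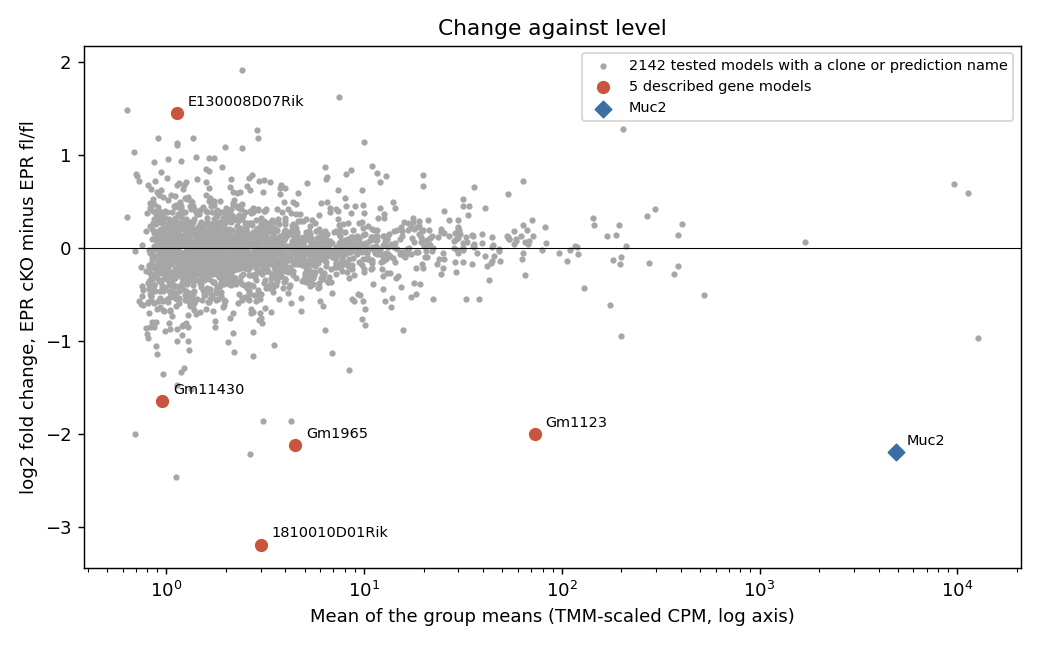
The log2 fold change (*EPR* cKO minus *EPR* fl/fl) of the 2142 analysed models with a clone or prediction name against their mean level in TMM-scaled CPM on a log axis, with the 5 described models and Muc2 marked. Gm1123 stands alone near the middle of the axis among the strongly reduced models, while Gm11430 and E130008D07Rik lie at the low end, where the points spread most.

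Neighbouring genes were examined because position had no part in the choice. The nearest analysed gene on each side was taken for each model, at distances of 0.938 to 266 kb, and 1 of these 10 genes passed the test. Over all analysed genes, 1.57% were lower and 0.884% higher at adjusted p under 0.05. The neighbour that passed was Tnfrsf21, a death receptor of the tumour necrosis factor receptor family, 60.2 kb from E130008D07Rik. Tnfrsf21 rose from 70.1 ± 9.28 CPM in *EPR* fl/fl (61.5 to 86.1) to 97.1 ± 12.3 in *EPR* cKO (87.1 to 120.7; log2 fold change 0.47, SE 0.10, adjusted p = 0.027). The groups did not overlap, but the call was lost without *EPR* fl/fl library 1, 3, 4, 5 or 6 or *EPR* cKO library 2, 3 or 6, each time at an adjusted p between 0.051 and 0.084. The edgeR call was also lost with total counts (adjusted p = 0.063), without the low-count filter (adjusted p = 0.065) and with the composition score (adjusted p = 0.089).

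Gm1123 starts 938 bases beyond the end of Pik3cb, which encodes a catalytic subunit of phosphoinositide 3-kinase and is read in the same direction. Pik3cb stood at 23.8 ± 2.72 CPM in *EPR* fl/fl, against 19.1 ± 1.24 in *EPR* cKO (log2 fold change -0.32, SE 0.09, adjusted p = 0.074). It passed the test without *EPR* cKO library 1 (adjusted p = 0.013) and with DESeq2 (adjusted p = 0.016). Without that library, 2273 of all analysed genes were lower and 1178 higher. In the remaining 11 fits with a library left out and 7 other settings Pik3cb did not pass. With the composition score its log2 fold change was -0.25 (adjusted p = 0.23, edgeR). On the other side of Gm1123, 4.77 kb away, Faim, an inhibitor of apoptosis signalling, differed by -0.11 on the log2 scale (SE 0.15, adjusted p = 0.70). Gm1123 was chosen for its large difference, so its size is not compared with those of its neighbours.

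Gm11430 lies between Ccl4, a chemokine, and Wfdc17, which encodes a small protein with a whey acidic protein domain. Wfdc17, 7.81 kb away, had 4.52 ± 2.78 CPM in *EPR* fl/fl, against 2.99 ± 1.00 in *EPR* cKO (log2 fold change -0.58, SE 0.37, adjusted p = 0.41). Ccl4, 30.6 kb away, had 1.23 ± 0.918 and 1.14 ± 0.534 CPM (log2 fold change -0.07, SE 0.52, adjusted p = 0.95). Both groups overlapped for both genes. Wfdc18 was looked up after its value was seen and is not the nearest analysed gene on either side. It had 2.22 ± 0.493 and 1.03 ± 0.571 CPM (log2 fold change -1.10, SE 0.32, adjusted p = 0.099). Wfdc18 passed the test without *EPR* cKO library 1 (adjusted p = 0.029) or *EPR* cKO library 6 (adjusted p = 0.032), and with DESeq2 (adjusted p = 0.028). In the remaining 10 fits with a library left out and 7 other settings it did not pass.

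1810010D01Rik stands between Ccnd1, which encodes cyclin D1, and Tpcn2, an endolysosomal cation channel, at 266 and 45.8 kb. Their log2 fold changes were 0.24 (SE 0.15, adjusted p = 0.41) and 0.01 (SE 0.11, adjusted p = 0.97). The genes beside Gm1965 are Tpra1 and Plxna1, a semaphorin receptor, at 229 and 169 kb. They differed by 0.14 (SE 0.09, adjusted p = 0.43) and 0.08 (SE 0.10, adjusted p = 0.68) on the log2 scale. Adgrf5, an adhesion receptor of endothelium and other cells 202 kb from E130008D07Rik, stood at 14.1 ± 1.72 CPM in *EPR* fl/fl, against 9.55 ± 3.42 in *EPR* cKO (log2 fold change -0.56, SE 0.20, adjusted p = 0.17). It passed the test without *EPR* cKO library 1 (log2 fold change -0.75, adjusted p = 0.010), where 2273 of all analysed genes were lower and 1178 higher. In the remaining 11 fits with a library left out and 8 other settings Adgrf5 did not pass. With the composition score its log2 fold change was -0.23 (adjusted p = 0.50, edgeR).

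Co-variation with Muc2 was examined within each genotype, since the models were chosen by their difference between the genotypes and Muc2 differed too. Muc2 stood at 4072 to 14561 CPM in *EPR* fl/fl, against 1071 to 2023 in *EPR* cKO (log2 fold change -2.19, SE 0.27, adjusted p = 7.4e-04). Each of the 10 correlations, 5 models in 2 genotypes, was over 6 libraries, and p-values were adjusted over 15951 genes. In *EPR* fl/fl, Gm1965 had the highest correlation with Muc2 (Pearson r = 0.78, exact permutation p = 0.036, adjusted p = 0.48; Spearman rho = 0.89, exact permutation p = 0.033, adjusted p = 0.52). Without the 2 libraries farthest from the median of Muc2, libraries 3 and 5, r was 0.82 over 4. The r of Gm1965 was higher than that of 93.3% of all analysed genes.

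The other models had positive correlations in *EPR* fl/fl. Gm1123 had r = 0.63 (exact p = 0.18, adjusted p = 0.65) and rho = 0.66 (exact p = 0.175, adjusted p = 0.68). Gm11430 had r = 0.53 (exact p = 0.26, adjusted p = 0.70) and rho = 0.71 (exact p = 0.14, adjusted p = 0.65). E130008D07Rik, which was higher in *EPR* cKO, still had a positive r of 0.50 (exact p = 0.34, adjusted p = 0.75) and rho = 0.37 (exact p = 0.50, adjusted p = 0.80). 1810010D01Rik had r = 0.32 (exact p = 0.54, adjusted p = 0.84) and rho = 0.54 (exact p = 0.30, adjusted p = 0.72). Without libraries 3 and 5, r was 0.89, 0.90, 0.91 and 0.48 in that order. None of the 5 correlations passed the correction, and no gene of the whole table did, the smallest adjusted p for r being 0.38. With 6 libraries an exact permutation p cannot fall below 0.00139. A correction over 15951 genes could thus hardly be passed, and nothing is concluded from the failure.

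In *EPR* cKO all 5 Pearson coefficients were negative. They were -0.04 for 1810010D01Rik (exact p = 0.89, adjusted p = 0.95), -0.69 for Gm1123 (exact p = 0.23, adjusted p = 0.60) and -0.31 for Gm1965 (exact p = 0.49, adjusted p = 0.72). For Gm11430 r was -0.46 (exact p = 0.38, adjusted p = 0.66) and for E130008D07Rik -0.20 (exact p = 0.54, adjusted p = 0.75). The rho values were -0.09 (exact p = 0.92), -0.43 (exact p = 0.42), -0.54 (exact p = 0.30), -0.66 (exact p = 0.175) and -0.60 (exact p = 0.24) in the same order, beginning with 1810010D01Rik, with adjusted p-values of 0.96, 0.63, 0.51, 0.38 and 0.46. Without the 2 libraries farthest from the median of Muc2, libraries 5 and 2, r was -0.94, -0.59, -0.79, -0.67 and -0.81 over 4. Muc2 varied little in this genotype apart from library 5, the lowest at 1071 CPM, so these coefficients rest on a narrow range. Whether the correlations differ between the genotypes was not tested.

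**Figure D4:**
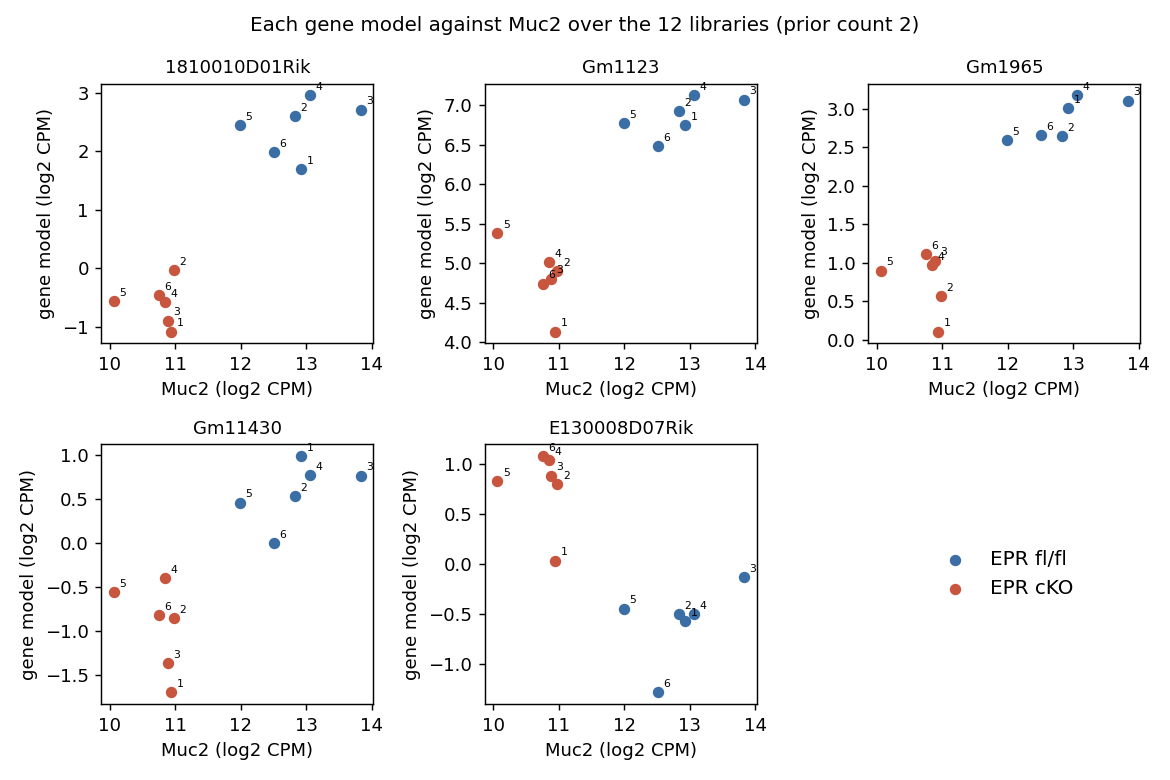
log2 CPM (prior count 2) of each gene model against that of Muc2, 1 point per library with its replicate number, coloured by genotype. The genotypes form separate clusters in every panel, so no correlation over all 12 libraries is given. Library 5 has the lowest Muc2 and library 1 the lowest level of each model in *EPR* cKO.

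Levels relative to Muc2 are given as a description only, since they contain the genotype difference by which the models were chosen. The log2 ratio of the CPM of 1810010D01Rik to that of Muc2 was -10.49 ± 0.65 in *EPR* fl/fl, against -11.56 ± 0.56 in *EPR* cKO (SD, n = 6). For Gm1123 it was -6.0 ± 0.50 and -5.93 ± 0.69, and for Gm1965 -10.01 ± 0.44 and -10.05 ± 0.61. For both models the means of the genotypes differed by less than the SD, which includes the spread of Muc2 itself. Whether a ratio was kept was not tested. For Gm11430 the ratio was -12.36 ± 0.52 and -11.99 ± 0.83, and for E130008D07Rik, the model that was higher, -13.64 ± 0.55 and -10.05 ± 0.58.

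With the group means removed, the 5 models varied together to different degrees over the 12 libraries. Pearson r between 2 models ranged from 0.26, between 1810010D01Rik and Gm1965, to 0.79, between Gm1123 and Gm11430. E130008D07Rik was among those that varied with Gm1123 (r = 0.74), Gm1965 (r = 0.73) and Gm11430 (r = 0.75), although its genotype difference has the opposite sign. The centred composition score had r = 0.76 with Gm1123, 0.75 with Gm1965, 0.70 with Gm11430, 0.65 with E130008D07Rik and 0.29 with 1810010D01Rik. Libraries share depth and tissue make-up, whose part in these values was not tested. All of them include *EPR* cKO library 1, the lowest of its genotype for each model and for the score. How far these coefficients rest on that library was not tested. Muc2 itself had centred r between -0.02 (Gm1123) and 0.26 (Gm1965).

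The genes most alike in this centred measure were named by a rule, the 3 highest for each model over 12 libraries, *EPR* cKO library 1 included. For Gm1123 they were Klk1 (r = 0.98), 1810059H22Rik (r = 0.98) and Tmem234 (r = 0.96). Klk1, a secreted serine protease, fell from 584.9 ± 92.6 to 134.0 ± 38.5 CPM (log2 fold change -2.13, SE 0.19, adjusted p = 6.7e-05). It belongs to a family of closely similar kallikrein genes, and how surely its reads were assigned was not examined. For Gm1965 they were Tubgcp3 (r = 0.97), Galnt5 (r = 0.94) and Prkrip1 (r = 0.93). Galnt5, an enzyme that starts O-linked sugar chains on proteins such as mucins, fell from 52.5 ± 7.58 to 24.2 ± 5.02 CPM (log2 fold change -1.12, SE 0.14, adjusted p = 0.0011).

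For Gm11430 they were Kctd14 (r = 0.94), Aldh5a1 (r = 0.93) and Hspbap1 (r = 0.92). Kctd14 fell from 13.7 ± 2.27 to 6.99 ± 1.37 CPM (log2 fold change -0.97, SE 0.16, adjusted p = 0.0052). For E130008D07Rik they were Pycr1 (r = 0.94), C920006O11Rik (r = 0.93) and Galntl6 (r = 0.91). Pycr1, an enzyme of proline synthesis, fell from 5.22 ± 1.17 to 2.79 ± 0.669 CPM (log2 fold change -0.90, SE 0.21, adjusted p = 0.038), opposite to the model it resembled. That call was lost without *EPR* fl/fl library 2, 3, 4 or 5 or *EPR* cKO library 2, 3, 4, 5 or 6, at adjusted p-values of 0.053 to 0.10, and also with total counts (adjusted p = 0.061) and without the low-count filter (adjusted p = 0.054). For 1810010D01Rik the 3 were Gm12860 (r = 0.93), Gm17195 (r = 0.93) and Gm43609 (r = 0.92). Klk1, Galnt5, Kctd14 and Pycr1 were the only genes of these 15 that passed the test between genotypes, all 4 lower, where 1.57% of all analysed genes were lower and 0.884% higher.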

How the data were processed

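RNA-Seq of proximal colon from 6 *EPR* fl/fl and 6 *EPR* cKO mice was analysed from 1 count table. The authors prepared strand-specific libraries from total RNA, trimmed reads with Trimmomatic, aligned them to mm10 (GRCm38) with STAR 2.5.3a and used featureCounts with an Ensembl annotation. The deposited table held raw counts of reads per gene, not normalized by the authors, with exon coordinates and summed exon length. The strand setting and the treatment of reads with several alignments are not given in the sources used here. All 12 count columns were matched to samples by name, leaving 0 without a sample. Groups were taken from the sample labels.

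Genes with at least 1 CPM in at least 4 libraries (15952 of 55376; 36694 had any count) were fitted with edgeR 4.0.16 (R 4.3.3), TMM scaling, the quasi-likelihood F test and Benjamini-Hochberg adjustment. The fit was tested on simulated counts. log2 CPM used a prior count of 2. RPKM is TMM-scaled CPM per kilobase of counted exon. Precision is limited by total counts of 13093904 to 33211041 per library, and Wilson intervals cover counting error only. Correlations used all 720 pairings of 6 libraries, two-sided on the size of the coefficient, in Python 3.11.15. Exon positions were matched to GENCODE M21 (GRCm38), transcripts were compared with blastn 2.17.0, and promoters came from RefSeq (GRCm38.p6), which held 4 of the 5 models.

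The 5 models and all lists were chosen with earlier results of these data known. Genes named in the text were the 5 models, Muc2 and *EPR*, the nearest analysed gene on each side, the 3 genes most alike to each model, and models of the name class past the study thresholds. Cxadr, Wfdc18, Gm11432, Gm13986 and 0610040F04Rik were added after their values or similarity had been seen. Names of the class are Gm and digits, names ending in Rik, or 2 capitals and 6 digits. Alternatives were DESeq2 1.42.0 size factors or its Wald test, total counts, other filters, limma 3.58.1 (voom), a replicate block, the composition score, and each library left out; for the Muc2 correlations, a prior count of 0.5, total counts and levels relative to the epithelial markers.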

Additional observations from a re-analysis of the deposited data

Results flagged for a closer look

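Among 34 sets of 6 libraries of 1 genotype (the 5 models, Muc2, *EPR* and the 10 neighbours), 5 held a library far from the others by Dixon's criterion, where chance alone would mark about 1.7.

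E130008D07Rik was at 0.933 CPM in *EPR* cKO library 1, below the 1.65 to 2.02 CPM of the other 5 libraries, and without this library its log2 fold change was 1.55. Muc2 was at 1071 CPM in *EPR* cKO library 5, against 1731 to 2023 in the other 5. *EPR* (Smim31) was at 0.423 CPM in *EPR* cKO library 2, from 10 counts, against 0 to 0.134 in the others. Tpcn2, beside 1810010D01Rik, was at 10.0 CPM in *EPR* fl/fl library 1, against 14.2 to 16.1. Tnfrsf21, beside E130008D07Rik, was at 120.7 CPM in *EPR* cKO library 5, against 87.1 to 98.4.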

How the results depend on the processing

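All 5 models kept the direction of their difference in every alternative and with each library left out. They were chosen for this difference and their groups do not overlap. Leaving out a single library could thus not turn a direction, and nothing is concluded from it. With the composition score as a covariate, the log2 fold changes of Gm1123 (-2.36), Gm1965 (-2.47) and Gm11430 (-2.17) moved by more than the spread between replicates. The score differs between the genotypes, so it and the genotype cannot be fully told apart.

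Replicate numbers are shared by the labels only as numbers. Same-numbered libraries deviated from their group means with r between -0.24 and 0.34, over 0.1 in 2 of 6 pairs. Of 12 libraries, 4 correlated best with their own number. With 6 pairs, these values cannot decide whether the numbers pair the samples. With a replicate block the log2 fold changes were -3.17 for 1810010D01Rik, -2.03 for Gm1123, -2.12 for Gm1965, -1.66 for Gm11430 and 1.46 for E130008D07Rik. The block gave 67 genes higher and 178 lower, 4 lower past the study thresholds, 5 models of the name class lower and 0 lower past the study thresholds. Kctd14 (adjusted p = 0.054) and Pycr1 (adjusted p = 0.084) lost their calls under the block. Ccl4 turned to 0.16 there and to 0.37 with limma-voom.

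Over all genes, DESeq2's Wald test called 473 lower, 440 higher and 69 lower past the study thresholds, and in the name class 27, 16 and 8. limma-voom called 7 of the class higher. The number of genes higher was 39 with total counts, where 247 were lower, 54 without the low-count filter, where 243 were lower, and 91 with the composition score. Leaving out single libraries gave 145 to 2273 genes lower, 28 to 1178 higher and 19 to 48 lower past the study thresholds, and for the name class 8 to 91 lower and 1 to 37 higher. The largest of these counts came without *EPR* cKO library 1. The cause of these changes was not tested.

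Pik3cb passed with DESeq2 (-0.32). Tnfrsf21 lost its call with total counts (0.44), no filter (0.45) and the score (0.42). Ccnd1 turned to -0.024 with the score, and Tpcn2 to -0.033 with total counts and -0.012 without the filter. Leaving out single libraries, log2 fold changes ranged from -0.076 to 0.056 for Tpcn2, -0.00053 to 0.13 for Plxna1, -0.31 to 0.36 for Ccl4, -0.36 to -0.28 for Pik3cb, 0.40 to 0.54 for Tnfrsf21 and -0.75 to -0.45 for Adgrf5. In *EPR* cKO, r with Muc2 turned for 1810010D01Rik to 0.076 with total counts and 0.26 relative to the epithelial markers, and ranged with single libraries left out from -0.50 to 0.19 for 1810010D01Rik and from -0.60 to 0.25 for E130008D07Rik. No correlation passed the correction under any alternative, but the small number of libraries made passing hardly possible. At 4 to 54 counts per library, counting error limits Gm11430 and E130008D07Rik most.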
